A study of Rattus norvegicus with 4 samples.

Results

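miR-21 was described in small RNA of rat growth plate chondrocytes and of the matrix vesicles (MVs) that these cells lay down in their matrix. Its members are the counts listed under the gene Mir21, which were 2 of the 774 annotated loci in the deposited counts, and Mir21 was 1 of 452 miRNA genes. They are the 5p arm (miR-21-5p) and the 3p arm (miR-21-3p) of one precursor. The rows were taken by the gene's name alone, but the gene was chosen with earlier results of these data known.

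The study sequenced 1 library from each of 4 groups. RC-cells were chondrocytes from the resting zone of the costochondral (rib) cartilage, where cells are less mature, and GC-cells came from the growth zone, where they are more mature. RC-MVs and GC-MVs were the vesicles obtained from those cultures by trypsin digestion of the cell layer followed by stepwise centrifugation. All groups shared the same source, male Sprague Dawley rats, and were grown to confluence at passage 4 in medium with serum and ascorbic acid. The serum had been centrifuged to remove bovine exosomes, and such serum was also used to stop the trypsin digestion. The age of the rats, and whether a library came from 1 rat or from several, are not given in the sources used here, and cells after several passages are a culture model of the zones rather than the tissue itself.

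The libraries held from 982543 to 7414467 miRNA reads, a 7.55-fold range, and both cell libraries were deeper than their MV libraries. Reads could be assigned to 740 mature miRNA names, of which 384 had reads in all 4 libraries. The labelled cell type was checked against cartilage miRNAs. miR-140-3p, a miRNA known for its high level in cartilage, held 0.383% of the RC-cells library and 0.506% of the GC-cells library, while miR-675-5p, which is also made in cartilage, had 0 reads in all 4 libraries. Because there was 1 library per group, no difference has a replicate check and no p-value was computed. All intervals are at the 95% level and cover counting error only, and PCR copies of one molecule count as separate reads.

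A miRNA gene is transcribed into a long primary RNA, from which the enzyme Drosha cuts a hairpin and Dicer then a short duplex. One strand of the duplex, the guide, is kept in an Argonaute protein and represses mRNAs that match its seed, whereas the other strand is mostly degraded. The guide of miR-21 is the 5p arm. It is known as a miRNA that rises with growth, injury and TGF-beta signaling, that is raised in many tumors and in fibrosis, and that represses mRNAs of inhibitors of growth and of survival signals such as Pdcd4 and Spry1. In cultured cells of mesenchymal origin it is commonly among the most abundant miRNAs.

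The hairpin of Mir21 is shown first because both measured arms are cut from it. It has 92 bases in RefSeq and lies on the minus strand of GRCr8 at chr10:71902600-71902691, between the protein-coding genes Tubd1 and Vmp1. The counts were made on another build, Rnor_6.0, whose coordinates were not used here. In the hairpin, capitals mark the 5p arm (bases 18 to 39) and the 3p arm (bases 56 to 77), with 16 bases between them.
Mir21 hairpin: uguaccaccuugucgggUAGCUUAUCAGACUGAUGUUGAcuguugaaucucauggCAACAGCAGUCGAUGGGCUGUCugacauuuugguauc

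The mature arms follow with their seeds (bases 2 to 8) in capitals, since the seed sets which mRNAs an arm can pair with.
miR-21-5p: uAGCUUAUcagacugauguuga
miR-21-3p: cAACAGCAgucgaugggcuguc

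Both arms are 22 bases long, but they differ in composition. G and C make up 36.4% of miR-21-5p (8 bases) and 59.1% of miR-21-3p (13 bases), and the median of the 693 rat mature names in RefSeq was 47.8%. Only 9.24% of these names had a lower share of G and C than miR-21-5p, and 81.1% had a lower share than miR-21-3p. None of the 692 other names had the seed of miR-21-5p, and none had that of miR-21-3p. The closest other sequence was 7 single-base edits away for miR-21-5p (miR-101a-5p) and 8 for miR-21-3p (let-7f-2-3p). miR-21-5p and miR-21-3p have 1 locus each, so no counts of several loci were added together for them.

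miR-21-5p was the most abundant miRNA of both cell libraries and the next to most abundant of both MV libraries. In RC-cells it had 2783003 of 6517329 miRNA reads, which is 42.7% (95% Wilson interval from 42.66% to 42.74%). In GC-cells it had 3106949 of 7414467 reads, or 41.9% (41.87% to 41.94%). The share was lower in the vesicles, with 190801 of 1108821 reads in RC-MVs, or 17.2% (17.14% to 17.28%), and 175816 of 982543 reads in GC-MVs, or 17.9% (17.82% to 17.97%). In order of level, RC-cells came first, followed by GC-cells, GC-MVs and RC-MVs. No interval overlapped another, yet the libraries next to each other in this order, RC-cells and GC-cells or GC-MVs and RC-MVs, differed by less than 1 percentage point, and the spread between replicate libraries is unknown. The order also depends on the total. With one that omits miR-143-3p and miR-22-3p, GC-cells (54.4%) came before RC-cells (49.3%), and GC-MVs held 35.3% against 25.3% in RC-MVs.

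**Figure D1:**
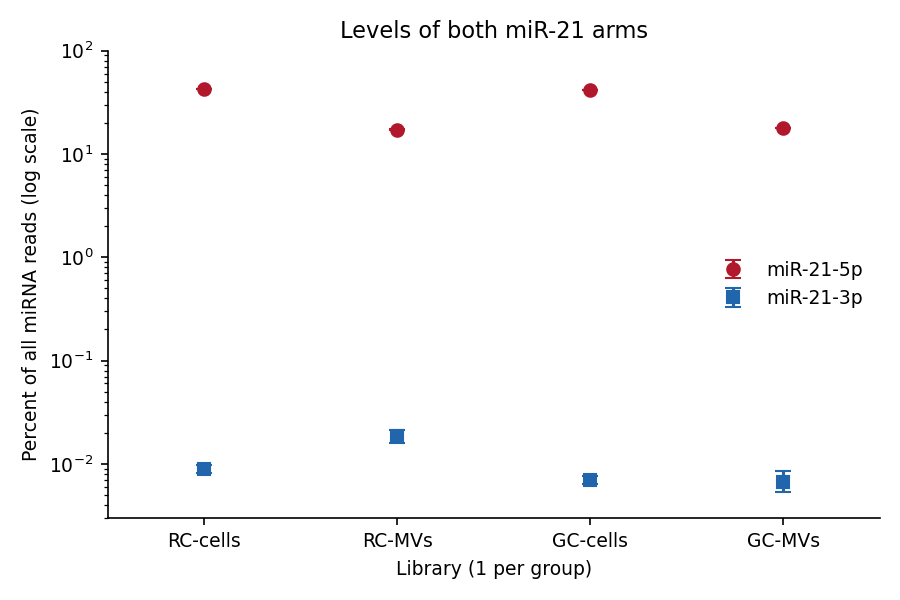
Percent of all miRNA reads (log scale) for miR-21-5p (circles) and miR-21-3p (squares) in the 4 libraries, with bars for the 95% Wilson interval, which are narrower than the symbol for miR-21-5p. The 5p arm lies near 42% in both cell libraries and near 17% to 18% in both MV libraries, whereas the 3p arm is highest in RC-MVs at 0.0184%.

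The distance from miR-21-5p to the next miRNA also differed between cells and vesicles. In RC-cells it had 3.81 times the reads of miR-143-3p (11.2%), a miRNA of smooth muscle and other mesenchymal cells, and 8.54 times those of let-7i-5p (5.00%), a member of the let-7 family that restrains growth. In GC-cells it had 2.03 times the reads of miR-143-3p (20.7%) and 8.52 times those of let-7i-5p (4.92%). In RC-MVs, miR-22-3p came first with 20.3% and 1.18 times the reads of miR-21-5p, which in turn had 1.46 times the reads of miR-143-3p (11.8%). In GC-MVs, miR-143-3p came first with 32.4% and 1.81 times the reads of miR-21-5p, and miR-22-3p (17.0%) followed closely, as miR-21-5p had only 1.05 times its reads. The first place was thus taken by different miRNAs in the 2 MV libraries, while miR-21-5p kept the same place in both.

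**Figure D2:**
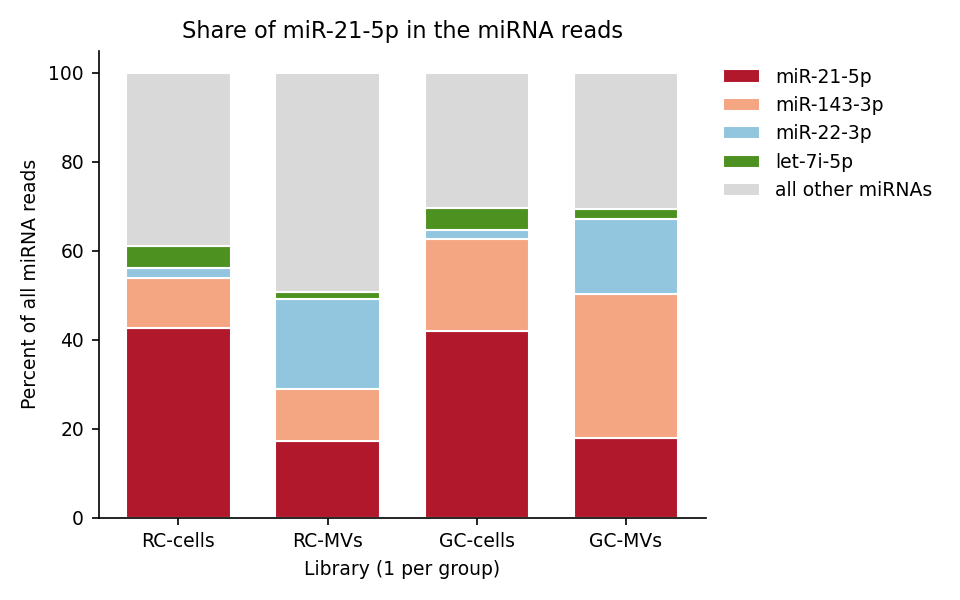
Stacked bars of the percent of all miRNA reads held by miR-21-5p, miR-143-3p, miR-22-3p, let-7i-5p and all other miRNAs in the 4 libraries. miR-21-5p fills 42.7% and 41.9% of the cell libraries and 17.2% and 17.9% of the MV libraries, where miR-22-3p (20.3% and 17.0%) takes a larger part than in cells.

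miR-21-3p, the strand that is mostly degraded, was present at a far lower level. It had 581 reads in RC-cells (0.00891%, from 0.00822% to 0.00967%), 513 in GC-cells (0.00692%, from 0.00635% to 0.00754%), 204 in RC-MVs (0.0184%, from 0.0160% to 0.0211%) and 66 in GC-MVs (0.00672%, from 0.00528% to 0.00854%). It ranked 169 of 496 detected names in RC-cells, 163 of 501 in GC-cells, 120 of 431 in RC-MVs and 166 of 431 in GC-MVs, where 1 other name had the same count. RC-MVs stood above the other libraries. The interval of GC-MVs overlapped those of both cell libraries, which did not overlap each other.

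Comparing MVs with the cells that produce them addresses which miRNAs are found in vesicles at other proportions than in cells. Relative to RC-cells, the share of miR-21-5p in RC-MVs was 2.48-fold lower (exact Clopper-Pearson interval from 2.47 to 2.49) and 2.34-fold lower in GC-MVs than in GC-cells (2.33 to 2.35). Both ratios were past the 2-fold threshold of the study and stayed past it under the other scalings tried (2.18-fold to 3.59-fold lower). Many other miRNAs passed it as well, 64.0% of 414 in either direction for the resting zone and 57.3% of 417 for the growth zone. Of the miRNAs read 1 or more times in both libraries, 30.4% of 414 were at least 2-fold lower in RC-MVs and 25.2% of 417 were at least 2-fold lower in GC-MVs. A ratio this far below 1 was therefore common, but that of miR-21-5p involved the most reads. From RC-cells to RC-MVs its share fell by 25.5 percentage points, which was 55.4% of the 46.0 points by which 280 miRNAs together were lower. From GC-cells to GC-MVs it fell by 24.0 points, or 63.2% of the 38.0 points summed over 281 miRNAs. let-7i-5p came next and fell by 3.46 and by 2.73 points. The largest rise was that of miR-22-3p, with 18.0 and 14.7 points.

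A ratio of percents depends on how the libraries are scaled, but the place of miR-21-5p among the ratios of all miRNAs does not. Counting only miRNAs with 10 or more reads on each side, 68 of 292 others (23.3%) had a lower ratio of RC-MVs to RC-cells than miR-21-5p. In the growth zone, 53 of 274 others (19.3%) had a lower ratio. The log2 ratio of miR-21-5p was -1.31 in the resting zone, where the median of the others was 0.13, and -1.23 in the growth zone, where the median was 0.19. In both zones it thus lay below the middle of the other miRNAs, by differences of -1.44 and -1.42 on the log2 scale.

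The other arm of the same precursor took a different place. Relative to RC-cells, the share of miR-21-3p in RC-MVs was 2.06-fold higher, with a counting interval from 1.75 to 2.42 that spans the threshold, and 33.6% of 414 miRNAs were at least 2-fold higher in this comparison. This call was lost with edgeR's TMM normalization, where the ratio was 1.94, and with totals that omit both miR-21 arms (1.43) or the 3 miRNAs miR-143-3p, miR-22-3p and miR-21-5p (1.78), and it was 2.01 with DESeq2's size factors. The ratio of GC-MVs to GC-cells was 0.971 (0.740 to 1.26), and 32.1% of 417 miRNAs were at least 2-fold higher. Of the other miRNAs read 10 or more times in both libraries, 193 of 292 (66.1%) had a lower ratio than miR-21-3p for RC and 120 of 274 (43.8%) had one for GC.

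**Figure D3:**
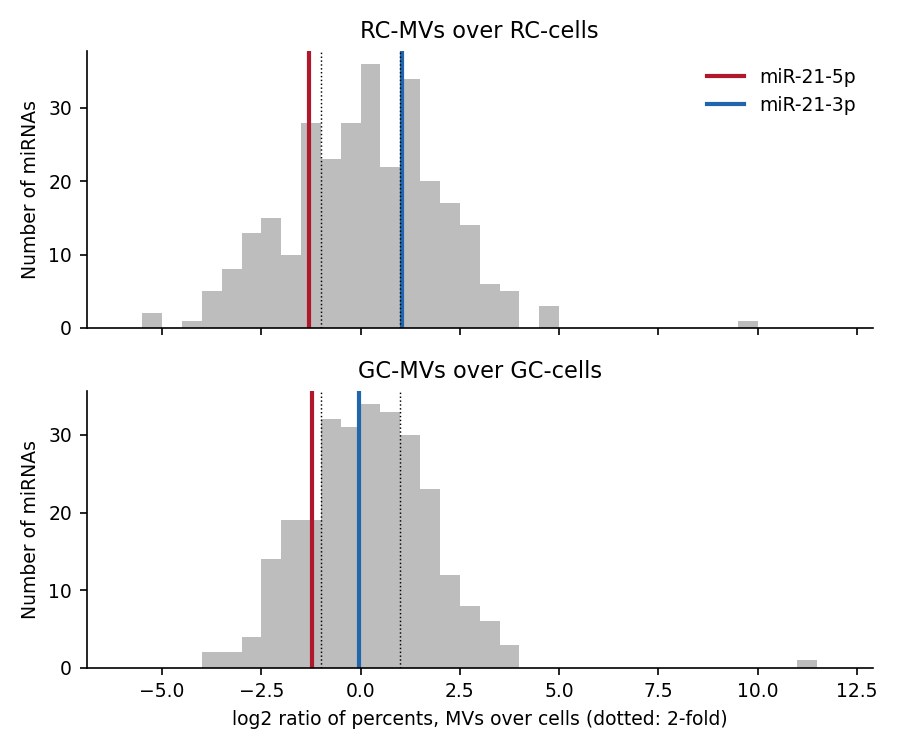
Histograms of the log2 ratio of percents, MVs over cells, for all other miRNAs read 10 or more times in both libraries (grey), with vertical lines for miR-21-5p and miR-21-3p and dotted lines at 2-fold. miR-21-5p lies at -1.31 and -1.23, left of the bulk of miRNAs in both zones, while miR-21-3p lies at 1.05 (resting zone) and -0.04 (growth zone).

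Because both arms come from one precursor, the ratio of 5p to 3p reads within a library is free of library scaling. There were 4790 reads of miR-21-5p for each read of miR-21-3p in RC-cells (95% exact interval from 4416 to 5205) and 6056 in GC-cells (5554 to 6617). The ratio was 935 in RC-MVs (815 to 1078) and 2664 in GC-MVs (2094 to 3445). The 3p arm thus made up 0.0209% and 0.0165% of the reads of the precursor in RC-cells and GC-cells, against 0.107% and 0.0375% in RC-MVs and GC-MVs. None of the 4 intervals overlapped.

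Few precursors were as one-sided as Mir21. Among precursors with at least 10 reads of each arm, Mir21 had the most unequal arms of 148 in RC-cells, of 146 in GC-cells and of 81 in GC-MVs. In RC-MVs it was in place 5 of 95, after Mir134, Mir22, Mirlet7c-1 and Mirlet7i. The median ratio of the larger to the smaller arm was 16.9 in RC-cells, 15.8 in GC-cells, 8.83 in RC-MVs and 7.38 in GC-MVs. The next precursor was Mir99a in RC-cells with 3102.5 reads of its 5p arm for each of its 3p arm, Mirlet7g in GC-cells with 4393, and Mir22 in GC-MVs, whose 3p arm had 952 times the reads of its 5p arm. Precursors with fewer than 10 reads of one arm were not placed. Counting 3 reads where an arm had fewer, the ratio would exceed that of Mir21 for 3 of these precursors in RC-cells, 2 in GC-cells, 7 in RC-MVs and 5 in GC-MVs, among them Mir381 in all 4 libraries.

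**Figure D4:**
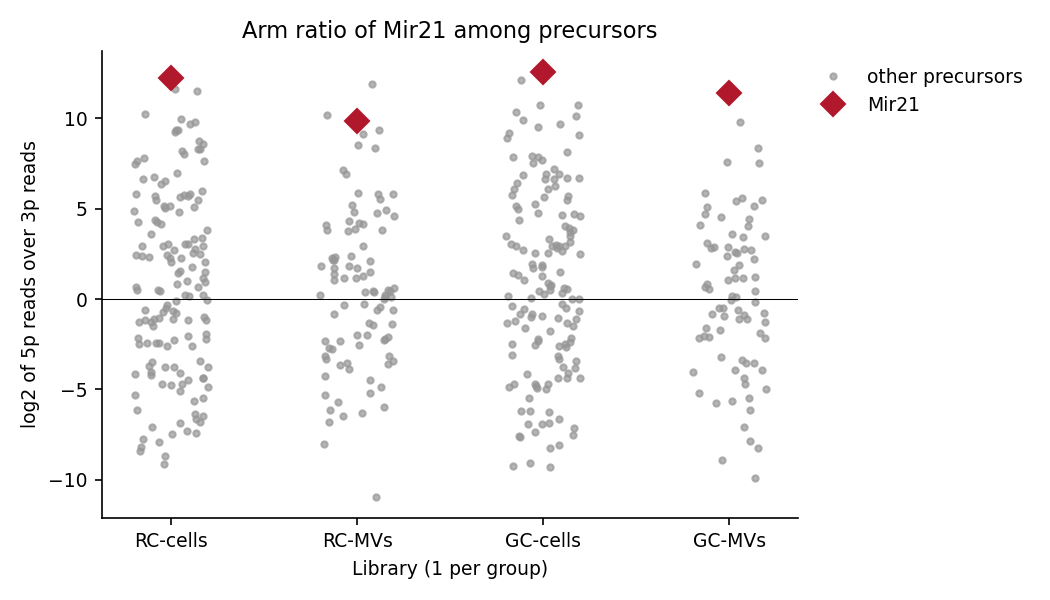
log2 of the 5p reads over the 3p reads for Mir21 (diamonds) and for each other precursor with at least 10 reads of both arms (grey points, spread sideways for visibility) in the 4 libraries. Mir21 is the topmost point in RC-cells, GC-cells and GC-MVs, where its ratio is 4790, 6056 and 2664 on the linear scale, and lies lower in RC-MVs at 935.

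From RC-cells to RC-MVs the ratio of 5p to 3p reads dropped 5.12-fold (95% log-normal interval from 4.37 to 6.01) and from GC-cells to GC-MVs 2.27-fold (1.76 to 2.94). The fall was 2.25 times as large for RC as for GC (1.67 to 3.05). Other precursors were compared if both arms had at least 10 reads in both libraries, with the dominant arm set by the cell reads. A fall of the dominant arm against the minor arm was seen in 55 of 89 between RC-cells and RC-MVs (median log2 change -0.77) and in 49 of 77 between GC-cells and GC-MVs (median -0.58). Precursors whose minor arm had fewer reads in the shallower MV libraries dropped out. These counts can therefore favor falls and are not a neutral background for Mir21. The log2 change of Mir21 was -2.36 and -1.18, and 24 and 28 of the others fell further.

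Base composition moved with these ratios. Mature sequences were found for 660 of the 740 names, which covered from 93.7% to 98.1% of the reads of a library. Across 265 miRNAs read 10 or more times in both libraries, the share of G and C had a Spearman rho of 0.56 with the log2 ratio of RC-MVs to RC-cells, and across 251 miRNAs it had a rho of 0.51 in the growth zone. These values describe miRNAs that share 1 pair of libraries each and are not independent replicates. Between RC-cells and GC-cells the rho was -0.0151 over 344 miRNAs, and between RC-MVs and GC-MVs it was 0.35 over 246.

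Set against miRNAs whose share of G and C lay within 5 percentage points of its own, miR-21-5p lay near the middle. In the resting zone its log2 ratio of -1.31 compared with a median of -1.50 over 59 such miRNAs, of which 33 had a lower ratio. In the growth zone it was -1.23 against a median of -0.97 over 61, of which 27 had a lower ratio. miR-21-3p had a log2 ratio of 1.05 against a median of 0.89 over 65 miRNAs of like composition in the resting zone, and of -0.04 against 0.65 over 61 in the growth zone, where 18 had a lower ratio. The part of base composition in the difference between the arms was not tested further.

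**Figure D5:**
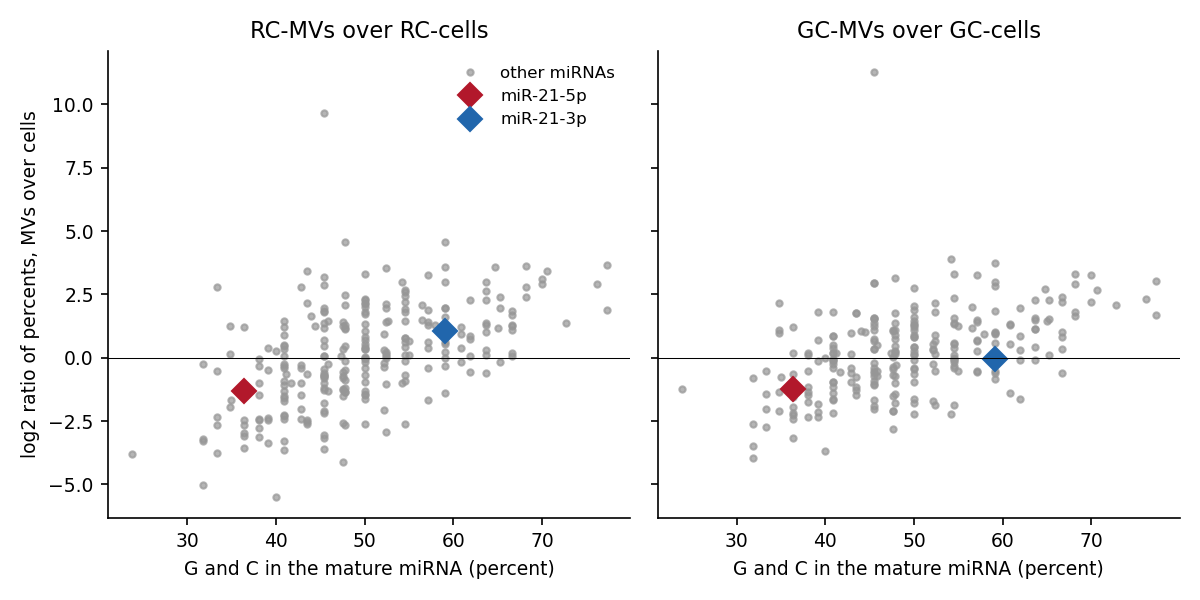
log2 ratio of percents, MVs over cells, against the percent of G and C in the mature miRNA for miRNAs read 10 or more times in both libraries and a RefSeq sequence (265 in the resting zone, left, and 251 in the growth zone, right). Ratios rise with G and C (rho 0.56 and 0.51), and the diamonds of miR-21-5p (36.4% G and C) and miR-21-3p (59.1%) lie within the cloud of miRNAs of like composition.

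miRNAs known from other cell types also differed between vesicles and cells. All 7 tested blood miRNAs passed 2-fold upward from RC-cells to RC-MVs and all 6 tested were in the growth zone, where miR-223-3p had 0 reads in GC-cells. Of the 7, 5 had from 1 to 5 reads in RC-cells, and miR-144-5p had 1 read there and 2 in RC-MVs. Over all miRNAs, 33.6% of 414 and 32.1% of 417 were higher, and 30.4% and 25.2% lower. The summed share of the blood miRNAs went from 0.00126% in RC-cells to 0.0887% in RC-MVs and from 0.00123% in GC-cells to 0.190% in GC-MVs, and the liver miRNA miR-122-5p went from 0.000491% to 0.401% and from 0.000459% to 1.14%. Of the 4 muscle miRNAs, the 1 tested in the resting zone and all 4 tested in the growth zone were at least 2-fold higher in MVs, at summed shares of at most 0.00733% in any library, with 2 of them at 0 in RC-cells and 1 at 0 in RC-MVs. Of the 2 endothelial miRNAs, miR-126a-5p was at least 2-fold lower in RC-MVs on 8 reads (ratio 0.402, from 0.170 to 0.818). miR-126a-3p, with 167 reads there, had a ratio of 0.608 and was at least 2-fold higher in GC-MVs (2.97), and the summed share of both was from 0.0158% to 0.0640%. Whether such cells were present was not tested, nor was any part of these miRNAs in the ratios of miR-21.

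Comparing the zones asks whether miRNA content changes with chondrocyte maturation. The share of miR-21-5p was nearly the same in both cell libraries, with a ratio of RC-cells to GC-cells of 1.02 (1.017 to 1.021), and 19.4% of 474 miRNAs differed by at least 2-fold in this comparison, 13.7% being higher and 5.7% lower in RC-cells. This balance turned with the scaling, from 65 higher and 27 lower to 34 and 51 with TMM normalization, 32 and 53 with DESeq2's size factors, and 35 and 51 with a total that omits miR-143-3p, miR-22-3p and miR-21-5p. The direction of the miR-21-5p ratio depended on the scaling too, as it was 0.808 with TMM normalization and 0.796 with DESeq2's size factors, which moved all log2 ratios by -0.34 and -0.36. Free of scaling, 114 of 378 other miRNAs (30.2%) had a lower ratio of RC-cells to GC-cells than miR-21-5p, whose log2 ratio of 0.03 compared with a median of 0.29. In the vesicles the ratio of RC-MVs to GC-MVs was 0.962 (0.955 to 0.968), where 39.3% of 397 miRNAs differed by at least 2-fold (14.6% lower in RC-MVs), and 110 of 270 others (40.7%) had a lower ratio. The ratio was 0.836 with TMM normalization, 0.809 with size factors and 0.621 with a total that omits miR-143-3p, miR-22-3p and miR-21-5p. The balance of calls between the MVs moved as well, from 98 higher and 58 lower in RC-MVs by all miRNA reads. It was 74 and 71, 71 and 82, and 40 and 123 with these settings in the same order.

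For miR-21-3p the zones were compared in the same way. Its share was 1.29-fold higher in RC-cells than in GC-cells (1.14 to 1.45), which was short of 2-fold and fell to 1.02 with TMM normalization and 1.01 with size factors. Relative to GC-MVs, its share in RC-MVs was 2.74-fold higher (2.07 to 3.67), which was past 2-fold, as were 24.7% of 397 miRNAs in this direction. The ratio stayed past 2-fold with TMM normalization (2.38) and size factors (2.31) but was 1.77 with totals that omit miR-143-3p, miR-22-3p and miR-21-5p. Free of scaling, 239 of 270 other miRNAs (88.5%) had a lower ratio of RC-MVs to GC-MVs. The value for GC-MVs rests on 66 reads. Between the same libraries, 4 of 7 blood miRNAs, 3 of 3 muscle miRNAs, 1 of 2 endothelial miRNAs and the liver miRNA miR-122-5p were at least 2-fold lower in RC-MVs and 0 were higher, where 14.6% of all 397 miRNAs were lower, and their part in this ratio was not tested. For miR-122-5p the study's RT-qPCR went the other way, with a higher level in RC-MVs than in GC-MVs, whereas its PCR array had it lower in RC-MVs.

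Since all percents of a library add up to 100, a miRNA that holds over 40% of the reads in cells and under 20% in MVs moves every other percent. Leaving both miR-21 arms out of the total raised the percent of each other miRNA by a factor of 1.75 in RC-cells, 1.72 in GC-cells, 1.21 in RC-MVs and 1.22 in GC-MVs. The ratio of MVs to cells of every other miRNA was thereby multiplied by 0.692 (resting zone) and 0.708 (growth zone), which is a shift of -0.53 and -0.50 on the log2 scale. The ratios between zones hardly moved, with shifts of -0.01 for the MVs and 0.02 for the cells.

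Because the same factor, which was below 1 for MVs over cells, applies to every other miRNA, higher calls between MVs and cells can only be lost. Lower calls between them can only be gained, and the counts give the size of this shift. Of the 412 other miRNAs tested in the resting zone, 138 passed 2-fold upward and 125 downward in RC-MVs with miR-21 in the total. Without it, 101 were higher and 164 lower, so that the higher ones went from 52.5% to 38.1% of the calls. Of the growth zone miRNAs, 134 of 415 were higher and 104 lower in GC-MVs with miR-21, against 95 and 151 without it, which moved the share of higher calls from 56.3% to 38.6%. In all, 76 miRNAs (18.4%) changed their call between RC-cells and RC-MVs, and 86 (20.7%) did so between GC-cells and GC-MVs. Of these, 37 and 39 were no longer higher, and 39 and 47 became lower. Between the zones only 2 calls changed in either comparison. For the MVs, 2 were no longer higher in RC-MVs, whereas for the cells 1 was no longer lower and 1 became higher in RC-cells. Over all miRNAs with TMM normalization the share of higher calls was 50.4% for RC-MVs and 48.1% for GC-MVs. With a total that omits miR-143-3p and miR-22-3p as well as miR-21-5p it was 47.9% and 60.5%, so that for GC-MVs it lay above the 38.6% found without miR-21 alone.

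Among the most abundant other miRNAs, calls changed for only 2. miR-127-3p, from an imprinted cluster, was 2.04-fold higher in GC-MVs than in GC-cells with miR-21 in the total and 1.45-fold higher without it. miR-148a-3p, which represses DNA methyltransferase 1 mRNA, was 1.92-fold lower with miR-21 and 2.72-fold lower without it. miR-22-3p stayed past 2-fold in both zones, going from 9.10-fold to 6.30-fold higher in RC-MVs and from 7.64-fold to 5.41-fold higher in GC-MVs. miR-143-3p went from 1.05 to 0.727 for RC-MVs and from 1.56 to 1.11 for GC-MVs, and was not past 2-fold either way.

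The evenness of the libraries turned on miR-21-5p as well. The effective number of miRNAs, given as the inverse Simpson index (the number of equally abundant miRNAs with the same sum of squared shares), was 4.94 in RC-cells and 10.5 in RC-MVs. Without miR-21 it was 16.3 in RC-cells and 10.5 in RC-MVs, so that the order was turned. The index was 4.47 in GC-cells and 5.94 in GC-MVs with miR-21, and 6.98 and 4.95 without it. miR-21-5p alone made up 90.1% of the sum of squared shares in RC-cells, 78.4% in GC-cells, 31.1% in RC-MVs and 19.0% in GC-MVs. With miR-21, 2 miRNAs were enough for 50% of the reads in RC-cells, and without it 7 were needed, while 4 were needed in RC-MVs either way. In the growth zone 2 were enough in both GC-cells and GC-MVs with miR-21, and 4 and 2 were needed without it.

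The miRNAs whose pattern over the 4 libraries was most like that of miR-21-5p were sought among 130 others with at least 100 reads in every library. Likeness was the distance between log2 percents after each miRNA was centred on its own mean. The nearest were miR-30e-5p (distance 0.21), miR-30a-5p (0.27), miR-128-3p (0.30), let-7i-5p (0.36) and miR-103-3p (0.37), against a median distance of 1.88. miR-30e-5p held 0.301% and 0.286% in RC-cells and GC-cells, and 0.120% and 0.146% in RC-MVs and GC-MVs. The ratios of these miRNAs follow from their choice by likeness over the same libraries and are not a separate result. They were lower in MVs of both zones, with ratios of MVs to cells from 0.309 to 0.544 for RC and from 0.353 to 0.511 for GC, and near 1 between RC-cells and GC-cells (1.01 to 1.13). The nearest to miR-21-3p among 131 were miR-125b-2-3p (distance 0.41), let-7c-5p (0.41), miR-409a-3p (0.49), miR-99b-5p (0.50) and miR-100-5p (0.50). By the same choice, each of them had a higher share in RC-MVs than in GC-MVs, by 1.72-fold to 3.38-fold.

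Drosha processing of miR-21 is known to be promoted by SMAD proteins, the carriers of TGF-beta and BMP signals, which bind the letters CAGAC in the stem of the hairpin. This motif was searched on the RNA strand only, since miRNAs are single-stranded. It was found in 13 of 693 rat mature names (1.88%) and in 34 of 419 hairpins (8.11%). miR-21-5p holds it at bases 9 to 13. The sequences of the holders with at least 100 reads in all 4 libraries, with the motif in capitals, were as follows.
miR-21-5p: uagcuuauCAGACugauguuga
miR-199a-5p: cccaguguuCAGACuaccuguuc
miR-214-3p: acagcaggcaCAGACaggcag

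miR-199a-5p and miR-214-3p come from 1 primary transcript that is known for skeletal development. miR-199a-5p was, like miR-21-5p, lower in the MVs of both zones, with shares of 2.07% and 1.25% in RC-cells and GC-cells against 0.499% and 0.387% in RC-MVs and GC-MVs, and was 4.16-fold lower in RC-MVs and 3.23-fold lower in GC-MVs. miR-214-3p, in contrast, had ratios of MVs to cells of 1.06 and 0.943. Apart from miR-21-5p, 5 holders had reads in both RC libraries, these 2 included, and 4 were at least 2-fold lower and 0 higher in RC-MVs, where 30.4% of all 414 miRNAs were lower (median log2 ratio -1.77 against 0.08 over all). The other 3 had few reads in RC-MVs, with 16 for miR-421-3p, 4 for miR-3559-5p and 1 for miR-3084d. Of 5 holders in the growth zone, 2 were lower and 1 higher, where 25.2% and 32.1% of all 417 were (median -0.77 against 0.13 over all), and the higher one, miR-6325, had 1 read in GC-cells and 2 in GC-MVs. Between RC-cells and GC-cells 1 of 6 was higher (13.7% over all), and between the MVs 1 of 4 was lower (14.6% over all). The motif GGAG, which the vesicle-loading protein hnRNPA2B1 is known to bind, was found in 8.08% of mature names on the same strand and was in neither arm of miR-21. A match of letters describes the sequence and is not a binding site.

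Other miRNAs linked to the same processes as miR-21 were taken from lists. Of 15 miRNAs tied to fibrosis and TGF-beta signaling, 14 had counts under the name used. From RC-cells to RC-MVs 2 of them passed 2-fold upward and 7 downward, where 33.6% and 30.4% of all 414 miRNAs did (median log2 ratio -0.82 against 0.08 over all). The higher ones were miR-181a-5p (4.29-fold) and miR-140-3p (2.48-fold), and with the miR-21 arms out of the total 1 was higher and 8 lower, against 101 and 165 of all 414. Among the lower ones were miR-26a-5p (9.84-fold), which is known to restrain growth, miR-140-5p (8.37-fold), miR-27b-3p (ratio 0.167) and miR-29a-3p (3.02-fold), which represses collagen mRNAs. miR-29b-3p, of the same family as miR-29a-3p, was not lower (ratio 1.11, from 0.782 to 1.53). miR-155-5p was 27.7-fold lower on 5 reads in RC-MVs. From GC-cells to GC-MVs 2 were higher and 5 lower, against 32.1% and 25.2% of all 417 (median -0.09 against 0.13), and without miR-21 in the total 1 was higher and 5 lower, against 95 and 152 of all 417. With miR-21 in the total, the higher ones were miR-181a-5p (3.44-fold) and miR-29b-3p (2.13-fold), while miR-29a-3p had a ratio of 0.852. Between RC-cells and GC-cells 0 of 14 were past 2-fold (19.4% of all 474 were), as for miR-21-5p, and between the MVs 1 was higher and 6 lower in RC-MVs (24.7% and 14.6% of all 397).

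Of 16 miRNAs tied to growth and survival, 15 could be tested in the resting zone, of which 1 passed 2-fold upward in RC-MVs and 9 downward, where 33.6% and 30.4% of all miRNAs did (median log2 ratio -1.18 against 0.08 over all). The higher one was the hypoxia-induced miR-210-3p (2.61-fold), and this call was lost with the miR-21 arms out of the total, where 0 were higher and 11 lower, against 101 and 165 of all 414. Lower were miR-20a-5p (10.3-fold), a member of the miR-17-92 cluster that drives cell cycling, miR-34a-5p (6.14-fold), which p53 induces, and let-7a-5p (2.27-fold). In the growth zone 1 of 16 was higher and 6 lower, against 32.1% and 25.2% of all (median -0.55 against 0.13), and without miR-21 in the total 0 were higher and 9 lower, against 95 and 152 of all 417. Between RC-cells and GC-cells 0 of 16 were past 2-fold (19.4% over all), and between the MVs 4 of 15 were lower in RC-MVs and 0 higher (14.6% and 24.7% over all).

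Against miRNAs that are commonly used as references, the fall of miR-21-5p in MVs was also seen for some and not for others. Of 9 such miRNAs, 2 passed 2-fold upward and 4 downward in RC-MVs, and the same counts held in GC-MVs (median log2 ratios -0.90 and -0.39 against 0.08 and 0.13 over all). Over all miRNAs, 33.6% passed upward and 30.4% downward in RC-MVs, and 32.1% and 25.2% in GC-MVs. With the miR-21 arms out of the total, 0 of the 9 were higher in either zone, while 6 were lower in RC-MVs and 4 in GC-MVs. Over all miRNAs with this total, 101 of 414 were higher and 165 lower in RC-MVs, and 95 of 417 were higher and 152 lower in GC-MVs. miR-191a-5p had ratios of MVs to cells of 1.23 in both zones, miR-423-3p of 2.73 and 2.64, and miR-26a-5p of 0.102 and 0.218. Between RC-cells and GC-cells 0 of 9 were past 2-fold (19.4% over all), and between the MVs 2 of 9 were lower in RC-MVs (14.6% over all). Of the 4 cartilage miRNAs that could be tested, 2 were lower in the MVs of each zone (30.4% and 25.2% over all), and miR-140-3p alone was higher, in RC-MVs, a call that was lost without miR-21 in the total. Between RC-cells and GC-cells 0 of the 4 were past 2-fold (19.4% over all), while 1 was lower in RC-MVs than in GC-MVs (14.6% over all).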

How the data were processed

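Small RNA of 4 rat chondrocyte libraries, 1 per group, was sequenced on an Illumina instrument. The authors checked read quality with FASTQC, aligned reads with Bowtie2 to Rnor_6.0 and tabulated miRNAs with miARma-Seq. The deposited values are whole-number read counts per mature miRNA locus without normalization. Tool versions, trimming and the treatment of reads matching several loci are not given in the sources used here.

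Counts of loci with the same mature name were added (28 names), divided by all miRNA reads of the library and given as percent, as the study did. Fold is the ratio of percents, called at 2-fold where each library had 1 read or more. Intervals (95%, counting error alone) were Wilson for shares, exact Clopper-Pearson for ratios and log-normal for ratios of ratios. A count of 0 allows up to 3 reads, or from 4.05e-05% (GC-cells) to 0.000305% (GC-MVs). The computations were checked on simulated counts. There being 1 library per group, no test was made.

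The alternatives were TMM (edgeR 4.0.16), size factors (DESeq2 1.42.0, R 4.3.3), totals without abundant miRNAs, unmerged loci, pseudocounts of 0.5 and 5, minimum counts and a threshold of 4-fold. Sequences and gene order came from RefSeq tables of GRCr8. The window of 5 percentage points of G and C was chosen after the counts were seen. Named miRNAs were both arms, the 5 most abundant others of each library, miRNAs with a shared seed, the 5 of nearest pattern to each arm, neighbours in arm ratio, and members of fixed lists (fibrosis and TGF-beta, growth and survival, references, cartilage, blood, endothelium, liver, muscle, CAGAC holders). The members and lists were chosen with earlier results of these data known. Computations ran in Python 3.11.15 (scipy 1.17.1, pandas 2.3.3, numpy 2.4.6), and plots were drawn with matplotlib 3.10.9.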

Additional observations from a re-analysis of the deposited data

Results flagged for a closer look

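The ratio of MVs to cells of miR-21-3p differed between the zones, at 2.06 for RC and 0.971 for GC, and the first was 2.13 times the second (95% log-normal counting interval from 1.57 to 2.87). The growth zone ratio has an interval that spans 1 (0.740 to 1.26), so it shows no clear direction. It was 1.03 with a pseudocount of 5 reads and 1.04 with a total that omits miR-143-3p, miR-22-3p and miR-21-5p. Each zone has 1 pair of libraries, and the difference between zones was not tested.

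The ratio of RC to GC of miR-21-5p was below 1 in MVs (0.962) and above 1 in cells (1.02), and the first was 0.944 times the second (counting interval from 0.937 to 0.949998). Both ratios were below 1 with TMM normalization (0.836 in MVs and 0.808 in cells) and with size factors (0.809 and 0.796). With these scalings the ratio in MVs was the higher one, so the direction of the difference turned. With a total that omits miR-143-3p, miR-22-3p and miR-21-5p the ratio in MVs was the lower one (0.621 and 0.818). This difference was not tested either.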

How the results depend on the processing

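No paired analysis was possible because each group had 1 library, the labels carry no replicate numbers and no result came from a replicated test. A fit across both zones would take RC and GC as replicates of each other and was not made. No library was left out, since each comparison needs both of its libraries. Of 128 values under alternative settings, 87 stayed within their interval or within 1.5 times the count and 41 moved. The cause was not tested.

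The share of miR-21-5p rose with a total that omits miR-143-3p and miR-22-3p, to 49.3% and 54.4% in RC-cells and GC-cells and to 25.3% and 35.3% in RC-MVs and GC-MVs, and that of miR-21-3p rose to 0.0103%, 0.00897%, 0.0271% and 0.0133% in the same order. A total restricted to miRNAs that had 10 or more reads in every library gave 42.8% for miR-21-5p in RC-cells and 42.0% in GC-cells.

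In the order RC-MVs over RC-cells, GC-MVs over GC-cells, RC-MVs over GC-MVs and RC-cells over GC-cells, the ratio of miR-21-5p was 0.378, 0.366, 0.836 and 0.808 with TMM normalization, 0.392, 0.385, 0.809 and 0.796 with size factors, and 0.279, 0.302, 0.954 and 1.03 without the miR-21 arms in the total. It was 0.348, 0.458, 0.621 and 0.818 with a total that omits the 3 miRNAs miR-143-3p, miR-22-3p and miR-21-5p. The ratio of miR-21-3p for MVs over cells was 1.43 for RC and 0.687 for GC without the miR-21 arms. Without the 3 abundant miRNAs it was 1.77 for RC-MVs over GC-MVs and 1.03 for RC-cells over GC-cells, and the latter was 1.02 with TMM normalization and 1.01 with size factors.

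With a threshold of 4-fold, 143, 101, 32 and 20 miRNAs were past it in the same order, against 265, 239, 156 and 92 at 2-fold. Requiring at least 10 reads in both libraries left 144 for GC-MVs over GC-cells, 97 for RC-MVs over GC-MVs and 50 for RC-cells over GC-cells, where fewer miRNAs were tested, and a pseudocount of 5 reads left 58 in the last comparison. Of these calls, the share higher in RC-MVs than in GC-MVs was 62.8% by all miRNA reads, 51.0% with TMM normalization, 46.4% with size factors and 24.5% without the 3 abundant miRNAs, and that higher in RC-cells than in GC-cells was 70.7%, 40.0%, 37.6% and 40.7%. With a pseudocount of 5 reads the share higher in GC-MVs than in GC-cells was 68.4% in place of 56.1%, that for RC-MVs over RC-cells 62.5% in place of 52.5%, and that in RC-cells over GC-cells 81.0%. The percent of miRNAs with a lower ratio of RC-cells to GC-cells than miR-21-5p was 25.7 in place of 30.2 with at least 100 reads. Depth limits miR-21-3p most, with 66 reads in GC-MVs, whereas counting error is small for miR-21-5p.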
